A study of Mus musculus with 4 samples.

Results

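The genes described here were 40 antiviral interferon-stimulated genes of the mouse, taken as a list of named genes of the type I interferon response. Of these, 38 were found by symbol among the 21878 genes of the count table and all 38 had enough reads for the test, while Mx1 and Mx2 were not analysed here. RNA was sequenced from bone marrow-derived macrophages of C57BL/6 mice that had been cultured for 48 h, per the labels, with MC38, a line of mouse colon carcinoma cells. A figure legend of the study gives a shorter coculture for this experiment, so the time is uncertain. There were 2 libraries from wild type mice (WT) and 2 from anti-Act1 mice, which carry a knockdown of the adaptor protein Act1 directed at macrophages by a driver not given in the sources used here, and the labels give an age of 8 weeks for all of them. In the study's methods the marrow cells were grown with the growth factor M-CSF, and the cancer cells sat in an insert with a porous membrane, so that the cell types shared medium without mixing. No library of macrophages without cancer cells was analysed here, so both groups carry the coculture. The study calls the libraries biological replicates, and whether a library came from 1 mouse or from pooled mice was not given in the sources used here.

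Type I interferons are secreted proteins that bind a receptor made of the Ifnar1 and Ifnar2 chains. The receptor acts through the kinases Jak1 and Tyk2 on STAT proteins, which join Irf9 to form the factor ISGF3. ISGF3 binds a short promoter element, the interferon-stimulated response element (ISRE), and turns on a broad set of antiviral genes. Macrophages hold many of these genes at a low tonic level and raise them after sensing foreign nucleic acid or interferon. The products block viral translation, cut or edit RNA, tag proteins with Isg15, sense RNA, or damp the response itself, as Usp18 does at the receptor.

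Total counts were 55435063 to 75062945 per library, and 12494 genes were tested with edgeR's quasi-likelihood test on TMM-normalised counts. The test is two-sided, with Benjamini-Hochberg adjustment over all genes tested and a threshold of 0.05, and levels are given as CPM, counts scaled by the same normalised library size. A log2 change is the fitted log2 ratio of the anti-Act1 to the WT libraries. Traf3ip2, the gene of Act1, was at 6.98 and 7.54 CPM in the WT libraries and at 9.63 and 7.84 CPM in the anti-Act1 libraries, a log2 change of 0.27 (SE 0.12, edgeR adjusted p = 0.117). This transcript was thus not called lower with the label, no other check of the knockdown was made here, and the directions below follow the labels. Without anti-Act1 replicate 2 its log2 change was 0.41 (edgeR adjusted p = 0.0343). Of 10 macrophage marker genes, all 10 were tested and their summed level was 25349 to 26308 CPM in the WT libraries and 26032 to 26878 CPM in the anti-Act1 libraries (1 rose, 3 fell and 6 were not called). The sum was mostly Lyz2, at 16811 and 15811 CPM in the WT and 17135 and 17737 CPM in the anti-Act1 libraries, which was not called. The median log2 change of the 10 markers was −0.08, so the sum does not show the direction of most of them. The markers that fell were Itgam, Mertk and Mrc1, with log2 changes of −0.31, −0.40 and −0.63, and their part in the results below was not tested. The summed level of 10 epithelial markers was at most 0.464 CPM in any library, with Krt8, Krt18 and 4 others at 0 in all libraries. Of 7 markers of plasmacytoid dendritic cells, a cell type that makes much interferon, Siglech had 0 counts in 3 libraries and 2 in the other, and Klk1 had 0 in all. Their summed level was 370.2 to 409 CPM in the WT libraries and 463 to 467 CPM in the anti-Act1 libraries. It was mostly Tcf4 and Bst2, the latter itself one of the antiviral genes. Of the 4 tested, Bst2 rose (log2 change 0.39, edgeR adjusted p = 2.84e-07), Tcf4 fell (log2 change −0.22, edgeR adjusted p = 0.00262) and 2 were not called. The summed levels in the WT and the anti-Act1 libraries were 28.2 to 28.7 and 30.1 to 33.4 CPM for T and NK cell markers, 2.91 to 3.18 and 3.69 to 4.03 CPM for B cell markers, and 36.7 to 37.9 and 31.9 to 33.0 CPM for conventional dendritic cell markers. Those of fibroblast markers were 1.76 to 1.88 and 2.23 to 2.48 CPM, and those of neutrophil markers 6.84 to 7.01 and 6.57 to 7.47 CPM. The neutrophil sum was mostly S100a8, which rose (log2 change 0.66, edgeR adjusted p = 0.000564), while S100a9, Ltf and Retnlg fell (log2 changes −1.42, −1.58 and −3.95, edgeR adjusted p = 0.00065, 0.0115 and 0.00233) and 2 of the 6 tested were not called. Retnlg had 22 and 19 counts in the WT libraries and 2 and 0 in the anti-Act1 libraries. The T and NK cell sum was mostly Cd4, which rose (log2 change 0.21, edgeR adjusted p = 0.0358). Gzmb fell (log2 change −0.67, edgeR adjusted p = 0.0287), Lck was not called, and Cd3e, Cd3d, Cd3g and Cd8a had at most 6 counts. The conventional dendritic cell sum was mostly Itgax, which fell (log2 change −0.23, edgeR adjusted p = 0.0136), and 5 of the 6 tested were not called. The part of these cell types in the results was not tested, and in bulk RNA fewer cells of a type cannot be told apart from less RNA per cell. The Y-linked genes Ddx3y, Eif2s3y, Uty and Kdm5d were at 34.8 to 97.0 CPM in the WT libraries and had at most 1 count in the anti-Act1 libraries. The labels do not give the sex of the mice, and a difference in sex between the groups and the difference in genotype cannot be told apart in the values below.

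Of the 38 antiviral genes tested, 21 were higher in the anti-Act1 libraries with an edgeR adjusted p under 0.05 and 1, Oas2, was lower. Among all genes tested, 10.9% were called higher and 9.76% lower. The changes were small, since the called genes rose between 1.12-fold and 1.57-fold. The median log2 change was 0.20 over the 38 genes and −0.005 over all genes tested. In 30 of the 38 genes both anti-Act1 libraries lay above both WT libraries, against 28.4% of all genes tested, and in 2 genes both lay below, against 28.7%. Over the 38 genes the median log2 ratio to the mean of the WT libraries was 0.18 in anti-Act1 replicate 1 and 0.21 in anti-Act1 replicate 2, and the WT libraries lay at −0.0068 and 0.0068. An exact permutation test of 2 libraries against 2 cannot reach below p = 0.333, so all p-values come from the model across genes. The p-values measure the spread between these libraries only.

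**Figure D1:**
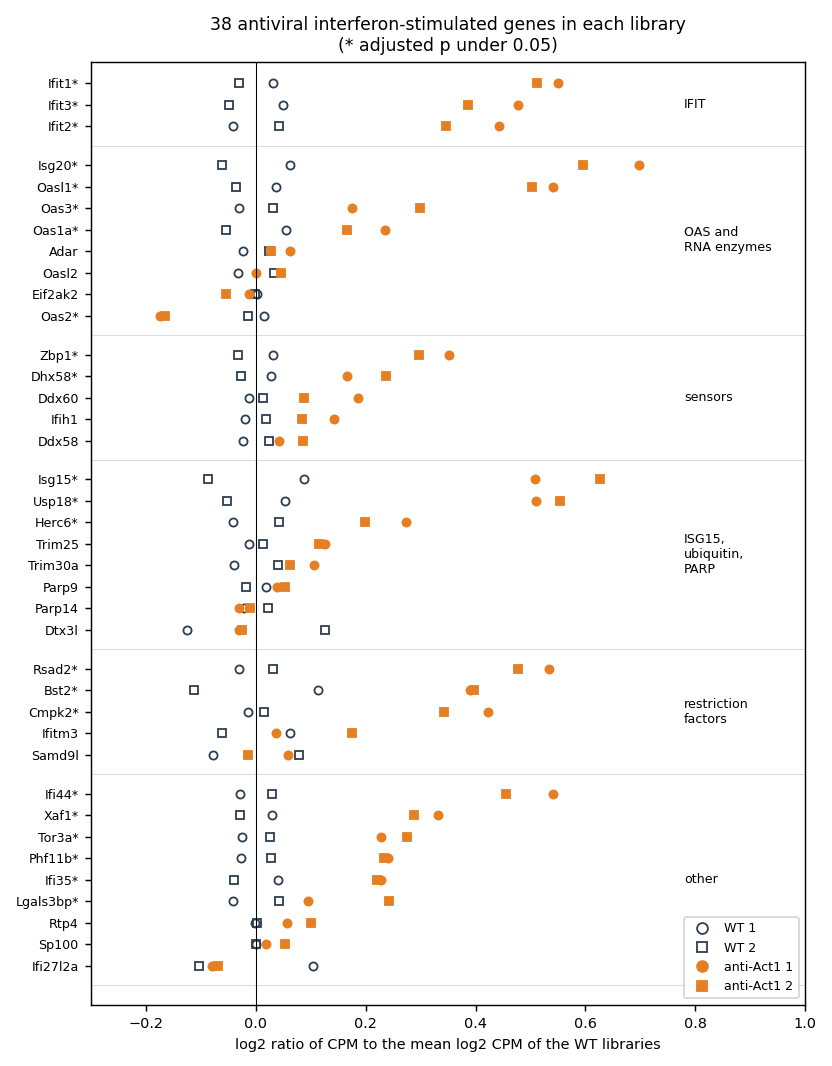
Level of each of the 38 antiviral genes in each library (rows, grouped by role), as the log2 ratio of its CPM to the mean log2 CPM of the 2 WT libraries; open symbols are WT and filled symbols anti-Act1, circles replicate 1 and squares replicate 2. Asterisks mark an edgeR adjusted p under 0.05; the filled symbols lie to the right for 30 genes, farthest for Isg20 at 0.70 and 0.59.

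The 3 IFIT genes, whose products bind foreign RNA ends or block the start of translation, all rose. Ifit1 was at 88.4 and 84.7 CPM in the WT libraries and at 127 and 123 CPM in the anti-Act1 libraries. Its log2 change was 0.53 (SE 0.054, edgeR adjusted p = 6.01e-11). Both anti-Act1 libraries were well above the WT libraries, and the groups did not overlap. Ifit3 was at 223 and 208 against 299.7 and 281 CPM, a log2 change of 0.43 (SE 0.052, edgeR adjusted p = 7.39e-09). Ifit2 was at 283 and 299.5 against 396 and 369.6 CPM, a log2 change of 0.39 (SE 0.052, edgeR adjusted p = 4.94e-08). For Ifit3, 31.7% of the 100-base words of its longest annotated transcript also occur in its neighbour Ifit3b, so their reads could have been shared or split by the authors' counting. Ifit3b had a log2 change of 0.48 (edgeR adjusted p = 1.09e-07). All 3 calls were kept in each of the 13 alternatives run.

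The OAS proteins make the messenger 2-5A when they meet double-stranded RNA, and of the 8 genes in the group of OAS and RNA-acting enzymes 4 rose, 1 fell and 3 were not called. Oasl1, an OAS-like protein without that enzyme activity which limits translation of Irf7, was at 49.3 and 46.9 CPM in the WT libraries and at 69.9 and 68.1 CPM in the anti-Act1 libraries. This was a log2 change of 0.52 (SE 0.059, edgeR adjusted p = 1.50e-09). Oas3 was at 295 and 308 against 340.3 and 371 CPM (log2 change 0.24, edgeR adjusted p = 0.000508), and Oas1a at 147 and 137 against 167 and 159 CPM (log2 change 0.20, edgeR adjusted p = 0.00419). Oas2 was the only antiviral gene called lower, at 147 and 144 CPM in the WT libraries and 129 and 130 CPM in the anti-Act1 libraries. Its log2 change was −0.17 (SE 0.052, edgeR adjusted p = 0.0136). The edgeR adjusted p was 0.148 when anti-Act1 replicate 1 was left out and 0.113 when replicate 2 was. Oasl2, among the most abundant of the group per length, was at 334 and 350 against 342 and 353 CPM, so its groups overlapped. Its log2 change of 0.02 had a 95% interval of −0.08 to 0.12. The call of Oas1a was also lost without WT replicate 2 (edgeR adjusted p = 0.0819) and without anti-Act1 replicate 1 (edgeR adjusted p = 0.12), and that of Oas3 without anti-Act1 replicate 2 (edgeR adjusted p = 0.0856). Oas1a shares 40.9% of its 100-base words with Oas1g, which had a log2 change of 0.30 (edgeR adjusted p = 0.000472, and 0.103 without anti-Act1 replicate 1).

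Of the other RNA-acting enzymes, Isg20, a nuclease of single-stranded RNA, had the largest log2 change of all 38 genes. It was at 13.2 and 12.1 CPM in the WT libraries and at 20.5 and 19.1 CPM in the anti-Act1 libraries, a log2 change of 0.65 (SE 0.087, edgeR adjusted p = 7.35e-08). It was also the least abundant per length, with a mean of 11.5 FPKM in the WT libraries. Eif2ak2, the kinase PKR that stops translation on double-stranded RNA, was at 97.6 and 97.3 against 96.5 and 93.8 CPM, with a 95% interval of −0.14 to 0.08 for its log2 change of −0.03. Adar, which edits adenosine in double-stranded RNA, had a log2 change of 0.04 (95% interval −0.06 to 0.15). Of its 100-base words, 16.9% also occur in Chrnb2, so that reads of the shared words are uncertain.

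Of the 5 nucleic acid sensors, 2 rose and 3 were not called. Zbp1, a sensor of left-handed nucleic acid that can start necroptosis, rose from 79.4 and 75.9 CPM to 99.1 and 95.3 CPM, a log2 change of 0.32 (SE 0.055, edgeR adjusted p = 9.90e-06). Dhx58, which encodes Lgp2, was at 104 and 100.5 against 115 and 121 CPM (log2 change 0.20, edgeR adjusted p = 0.00419). This call was lost without anti-Act1 replicate 2 (edgeR adjusted p = 0.14). The receptors that signal through Mavs were not called. Ifih1, the sensor of long double-stranded RNA, had a log2 change of 0.11 (edgeR adjusted p = 0.137), and Ddx58, the sensor of RNA ends also called RIG-I, one of 0.06 (edgeR adjusted p = 0.444). The log2 change of Ddx60 was 0.14 (edgeR adjusted p = 0.0857). Both anti-Act1 libraries lay above both WT libraries in all 3 of these genes, as they did in 28.4% of all genes tested. The upper ends of the 95% intervals of the 3 log2 changes were 0.22, 0.17 and 0.25.

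Of the 8 genes of Isg15, ubiquitin and ADP-ribose enzymes, 3 rose and 5 were not called. Isg15 is a ubiquitin-like protein that is linked to other proteins during the response, and Usp18 removes it and also binds the receptor to damp signalling. Isg15 was at 63.5 and 56.3 CPM in the WT libraries and at 85.0 and 92.3 CPM in the anti-Act1 libraries, a log2 change of 0.57 (SE 0.060, edgeR adjusted p = 2.49e-10). Usp18 was at 56.5 and 52.5 against 77.5 and 79.9 CPM, a log2 change of 0.53 (SE 0.059, edgeR adjusted p = 6.33e-10). Both genes were called in each of the 13 alternatives. Herc6, the mouse ligase for Isg15, had a log2 change of 0.24 (edgeR adjusted p = 0.000976, and 0.0601 without anti-Act1 replicate 1). Its transcript shares 20.9% of its 100-base words with Gm45193. Ube2l6, the conjugating enzyme of the same chain, had a log2 change of 0.37 (edgeR adjusted p = 5.50e-07), while Uba7, its activating enzyme, had one of 0.02 (edgeR adjusted p = 0.848). Both lie outside the 40 genes and were named after their values were seen.

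Apart from Herc6, the ligases and the ADP-ribose enzymes of the list were not called. Trim25, the ligase that acts on Ddx58, was at 646 and 657 CPM in the WT libraries and at 711 and 705 CPM in the anti-Act1 libraries. Its groups did not overlap, but its log2 change of 0.12 had an edgeR adjusted p of 0.0786, and DESeq2 gave 0.0189. Trim30a, which limits NF-κB signalling, had a log2 change of 0.08 (edgeR adjusted p = 0.275). Parp9 and its partner Dtx3l, a ligase, had log2 changes of 0.05 and −0.03 (edgeR adjusted p = 0.608 and 0.744), and Parp14 one of −0.02. Dtx3l was the least even in the WT libraries, at 146 and 174 CPM against 156 and 156 CPM. Leaving out WT replicate 1 gave it a log2 change of −0.15 (edgeR adjusted p = 0.0476), and leaving out WT replicate 2 one of 0.10 (edgeR adjusted p = 0.32). Parp9 shares 7.77% of its 100-base words with Dtx3l.

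Of the 5 restriction factors tested, 3 rose and 2 were not called, and Rsad2 had the smallest p of all 38 genes. Rsad2 encodes viperin, an enzyme that makes a chain-ending nucleotide, and Cmpk2, beside it in function, makes its substrate. Rsad2 was at 338 and 353 CPM in the WT libraries and at 500.1 and 481 CPM in the anti-Act1 libraries, a log2 change of 0.51 (SE 0.051, edgeR adjusted p = 5.01e-11). Cmpk2 was at 129 and 132 against 175 and 166 CPM, a log2 change of 0.38 (SE 0.052, edgeR adjusted p = 1.21e-07). Bst2, or tetherin, which holds budding virus at the cell surface, was at 310.4 and 266 against 376 and 378 CPM (log2 change 0.39, edgeR adjusted p = 2.84e-07). The WT libraries of Bst2 differed more than those of most members, and the log2 change came to 0.28 when WT replicate 2 was left out and to 0.51 when WT replicate 1 was. The call of Bst2 was lost in 1 of the 13 alternatives, limma on unfiltered log2(FPKM + 1) (limma adjusted p = 0.0711). Ifitm3, which blocks viral entry at endosomes, was the most abundant of the 38 genes per length, with a mean of 1138 FPKM in the WT libraries. It was at 762 and 700.0 against 749 and 824 CPM, so the groups overlapped (log2 change 0.11, edgeR adjusted p = 0.161, and 0.0218 without WT replicate 1). Samd9l, an antiviral factor that cleaves transfer RNA, had the largest p of the list, with a log2 change of 0.02 (95% interval −0.09 to 0.13).

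Of the other 9 interferon-stimulated genes, 6 rose and 3 were not called. Ifi44 had the largest change of these, at 60.3 and 62.8 CPM in the WT libraries and 89.6 and 84.4 CPM in the anti-Act1 libraries (log2 change 0.50, SE 0.057, edgeR adjusted p = 1.79e-09). The log2 changes of Xaf1, a proapoptotic factor, and of Tor3a, an ATPase of the endoplasmic reticulum, were 0.31 and 0.25 (edgeR adjusted p = 2.62e-05 and 0.000256). Those of Phf11b and Ifi35 were 0.24 and 0.22 (edgeR adjusted p = 0.00354 and 0.00503), and Ifi35 lost its call without WT replicate 2 (edgeR adjusted p = 0.0613) and without anti-Act1 replicate 1 (edgeR adjusted p = 0.0574). Lgals3bp, a secreted glycoprotein, was at 1173 and 1244 CPM in the WT libraries and at 1289.6 and 1429.9 CPM in the anti-Act1 libraries. Its log2 change of 0.17 was the smallest called rise (edgeR adjusted p = 0.0142). Over the 13 alternatives the log2 change of Lgals3bp was 0.095 to 0.25, and its call was lost in 6 of them. Rtp4, a chaperone of receptors, was at 259.5 and 260.1 against 270.1 and 279 CPM (log2 change 0.08, edgeR adjusted p = 0.303). Sp100, a nuclear body protein, had a log2 change of 0.04 and Ifi27l2a one of −0.08, with edgeR adjusted p-values of 0.697 and 0.437. Of the 100-base words of Phf11b and Rtp4, 13.8% and 11.2% occur in other genes.

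Levels per length, taken from the deposited FPKM, did not separate the called genes from the others. The mean over the 4 libraries was 14.5 to 592 FPKM in the 21 genes called higher, with a median of 47.1, and 15.7 to 1171 FPKM in the 16 genes not called, with a median of 47.6. All 38 genes had at least 854 counts in every library. The standard errors of the log2 changes were 0.050 to 0.087, so depth limited the least abundant gene, Isg20, most. For the 16 genes not called, the 95% intervals of the log2 change lay between −0.20 and 0.25. A missing call there does not show that the groups were alike.

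**Figure D2:**
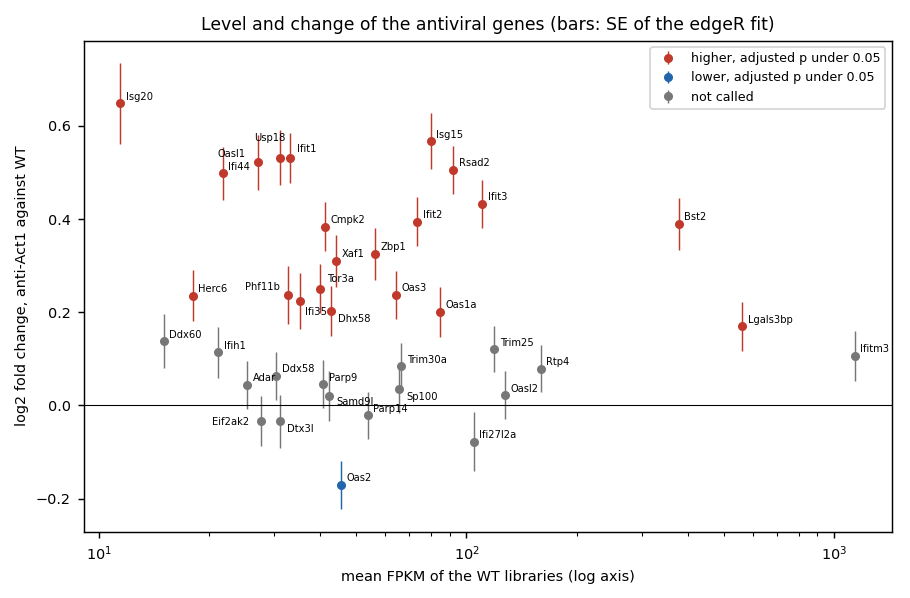
Log2 change of the 38 antiviral genes between the anti-Act1 and WT libraries against their mean FPKM in the WT libraries (log axis), with the SE of the edgeR fit as bars. Red points were called higher, the blue point, Oas2, lower, and grey points were not called; called and not called genes cover much the same range of levels.

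In the promoters of these genes, the ISRE core (GAAA, any 2 bases, GAAA) was searched on both strands of the RefSeq window from 250 bases before to 50 bases after each transcription start (GRCm38.p6). A window was found for 29 of the 38 genes, and 14 of the 29 (48.3%) held the motif, against 3.99% of the 27025 genes with a window. The match was in 8 of the 17 genes that rose (47.1%) and in 6 of the 12 not called. The place of the matches was noticed after the values were seen and was not tested. In all 8 of the genes that rose a match lay before the start, as near as base −14 and as far as base −156. Among the 6 not called this held for Ddx60 and for 1 of the RefSeq starts of Trim30a, while in Ddx58, Eif2ak2, Ifih1 and Ifitm3 the matches lay only after the start. The start is that of the RefSeq transcript and not one measured in these cells. The motif TTCNNNGAA, the core of the gamma-activated site bound by STAT dimers, was in 27.6% of the 29 genes and in 9.55% of all. It was in 5 of the 17 genes that rose and 3 of the 12 not called. The NF-κB core (GGGA, any 2 bases, TTCC) was in 10.3% of the 29 genes and in 1.63% of all. A window without these letters says nothing about binding of the factors.

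The 150 bases before the start are shown for 3 genes that rose and 2 that were not called, all with a match to the ISRE core, which is in capitals whether it reads on the strand of the gene or on the other strand. They are shown because matches of the same kind stand before genes that were and were not called. The sequences are from RefSeq, 5′ to 3′ on the strand of the gene, at chr4:156200819-156200968 (minus strand) for Isg15, chr19:34640739-34640888 (plus) for Ifit1, chr12:26456453-26456602 (minus) for Rsad2, chr8:61927937-61928086 (plus) for Ddx60 and chr7:104465194-104465343 (minus) for Trim30a. All 5 end at the base before the RefSeq start.
Isg15: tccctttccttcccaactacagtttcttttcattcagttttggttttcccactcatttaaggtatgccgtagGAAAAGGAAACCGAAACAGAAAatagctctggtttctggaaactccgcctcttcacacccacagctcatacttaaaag
Ifit1: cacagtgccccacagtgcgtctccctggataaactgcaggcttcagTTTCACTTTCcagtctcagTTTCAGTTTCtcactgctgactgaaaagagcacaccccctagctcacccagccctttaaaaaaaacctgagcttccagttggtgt
Rsad2: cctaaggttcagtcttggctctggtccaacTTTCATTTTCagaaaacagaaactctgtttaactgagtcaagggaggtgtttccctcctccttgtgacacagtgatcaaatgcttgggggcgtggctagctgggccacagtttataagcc
Ddx60: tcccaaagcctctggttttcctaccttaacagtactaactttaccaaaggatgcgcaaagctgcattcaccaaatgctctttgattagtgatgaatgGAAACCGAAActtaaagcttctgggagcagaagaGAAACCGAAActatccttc
Trim30a: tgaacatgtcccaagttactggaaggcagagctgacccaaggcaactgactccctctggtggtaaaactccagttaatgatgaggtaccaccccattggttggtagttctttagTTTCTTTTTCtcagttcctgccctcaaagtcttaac

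Isg15 held 3 overlapping matches between bases −78 and −57, and its log2 change was 0.57. Ifit1 held matches at −104 and −85 and Rsad2 at −120, with log2 changes of 0.53 and 0.51. Ddx60 also held a pair, at −53 and −19, with a log2 change of 0.14, and Trim30a one at −36 with 0.08. The windows of Isg20 and Oasl1, with log2 changes of 0.65 and 0.52, held no match. Oas1a held overlapping matches at −20 and −14, with a log2 change of 0.20. A relation between the matches and the size of the change was not tested.

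**Figure D3:**
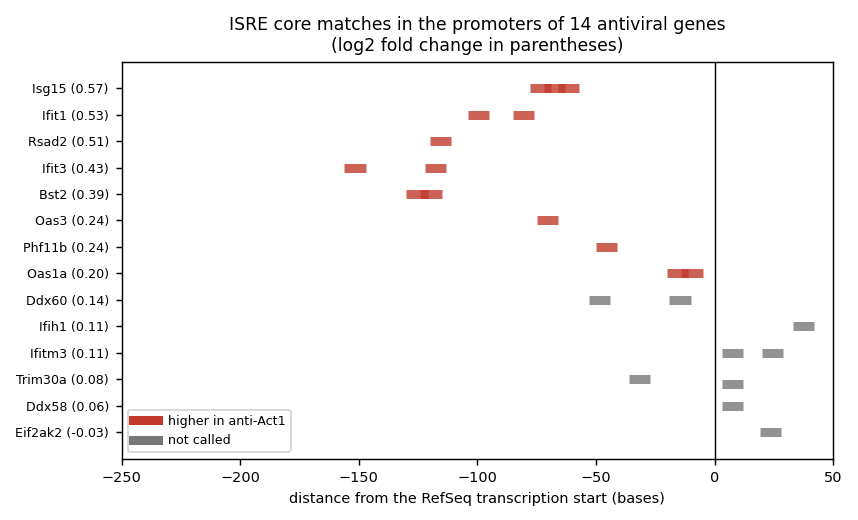
Position of each match to the ISRE core in the RefSeq promoter windows of the 14 antiviral genes that held one, in bases from the transcription start (0 on the axis); genes are ordered by log2 change, given in parentheses. Red bars are genes called higher and grey bars genes not called; the 8 red genes have matches before the start, and 4 of the 6 grey genes have them only after it. Trim30a has matches at 2 RefSeq starts, the other drawn slightly lower.

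The interferon genes themselves were near or at 0. Of 21 interferon ligand genes in the table, 17 had no count in any library and only Ifnb1 was tested. Ifnb1 had 4 and 0 counts in the WT libraries and 10 and 16 in the anti-Act1 libraries, with an edgeR adjusted p of 0.0264. That call was lost without WT replicate 2 (edgeR adjusted p = 0.317) and without anti-Act1 replicate 1 (edgeR adjusted p = 0.0637). Ifnk had at most 6 counts, Ifnab at most 2 and Ifng at most 1. A gene with no count could still have a level of up to 3 counts, or 0.0395 to 0.0549 CPM by library, a limit for counting error only.

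Among the genes of the interferon receptors and ISGF3, the ISGF3 subunits Stat2 and Irf9 were not called, with log2 changes of 0.04 (95% interval −0.06 to 0.14) and 0.03 (95% interval −0.08 to 0.14). Ifnar2 rose by 0.22 (edgeR adjusted p = 0.00108), while Ifnar1 had a log2 change of 0.11 (edgeR adjusted p = 0.13). The interferon gamma receptor chain Ifngr1 had a log2 change of −0.15 (edgeR adjusted p = 0.023), with adjusted p-values of 0.142 when anti-Act1 replicate 1 was left out, 0.176 when replicate 2 was and 0.0604 with the replicate number as a block.

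Of 13 genes that induce interferon, 2 rose, 3 fell and 8 were not called, against 10.9% higher and 9.76% lower among all genes tested. Irf7, the factor that amplifies interferon production and is itself interferon-stimulated, was at 629.7 and 604 CPM in the WT libraries and at 845 and 851 CPM in the anti-Act1 libraries (log2 change 0.46, edgeR adjusted p = 4.59e-10). Traf3, an adaptor of that pathway, had a log2 change of 0.29 (edgeR adjusted p = 0.000398). The genes that fell were sensors of DNA and RNA or their relay. Other sensors of the list, Mb21d1 and Tlr3, were not called (log2 changes −0.05 and −0.12, edgeR adjusted p = 0.802 and 0.277). Tlr9, the receptor of unmethylated DNA, was at 17.7 and 17.3 against 11.01 and 11.2 CPM, a log2 change of −0.66 (SE 0.090, edgeR adjusted p = 1.35e-07). Tmem173, which encodes Sting, had a log2 change of −0.41 (edgeR adjusted p = 3.50e-06), and Tlr7, a receptor of single-stranded RNA, one of −0.25 (edgeR adjusted p = 0.000375). Mavs, Irf3 and Tbk1 had log2 changes between 0.0010 and 0.03.

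**Figure D4:**
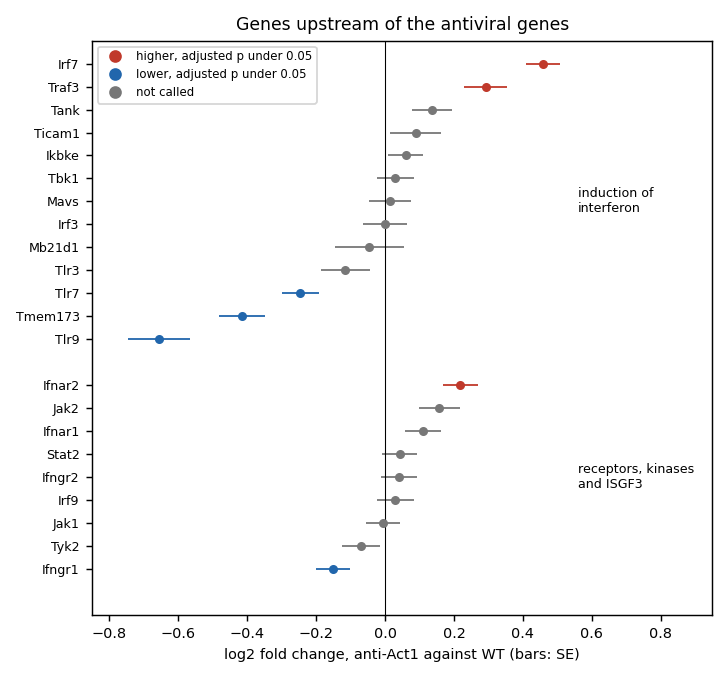
Log2 change between the anti-Act1 and WT libraries, with the SE of the edgeR fit as bars, for 13 genes that induce interferon (top) and genes of the receptors, kinases and ISGF3 (bottom). Irf7 lies farthest to the right at 0.46 and Tlr9 farthest to the left at −0.66.

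A further list of 56 antiviral interferon-stimulated genes, none of them among the 40, held 48 genes found by name and 47 tested. Of these, 17 were higher and 29 were not called, with a median log2 change of 0.08. Ifi205, a DNA-binding protein of the p200 family, had a log2 change of 0.54 (edgeR adjusted p = 8.38e-08), Parp10 one of 0.31 and Slfn2 one of 0.29 (edgeR adjusted p = 2.34e-05 and 1.19e-05). Fewer of these genes were called higher without anti-Act1 replicate 1, and so was a smaller share of all genes tested.

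**Figure D5:**
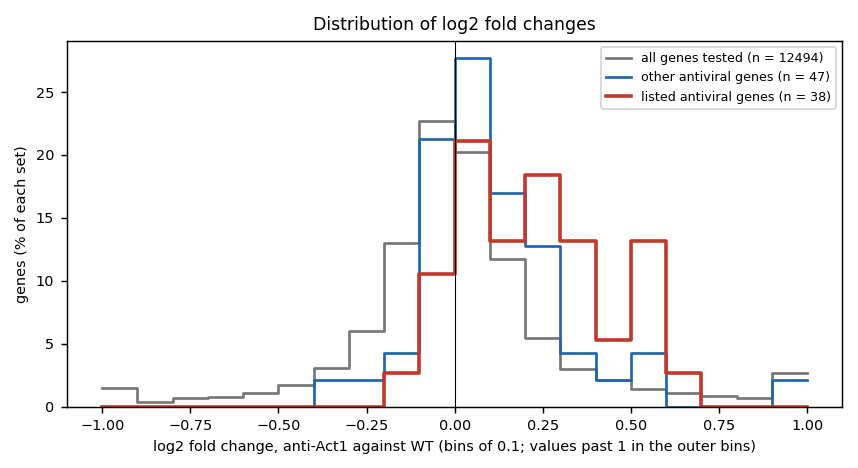
Share of genes (percent of each set) by log2 change between the anti-Act1 and WT libraries, in bins of 0.1, for the 38 listed antiviral genes, 47 other antiviral genes and all 12494 genes tested; values past 1 or −1 are in the outer bins. The listed genes lie between −0.17 and 0.65, with 33 of 38 above 0, against 49.0% of all genes tested.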

How the data were processed

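Per the study's methods, the authors filtered reads on adapters, unknown bases and quality, and read pairs were aligned by TopHat with a Bowtie index. The submitters' processing notes list Bowtie 0.12.2, HTSeq 0.6.1 and the builds mm8 and mm10 with no role; the annotation is not given in the sources used here. They deposited whole read counts per gene without normalization, and FPKM values, which match the counts scaled by gene length and column total (implied lengths within 1% between libraries for 100% of 11441 genes). Counts were tested with edgeR 4.0.16 (R 4.3.3; TMM, filterByExpr, glmQLFit and glmQLFTest, condition only). Standard errors are the log2 fold change divided by the root of the F statistic. The library preparation kit is not stated to keep strand, so overlapping genes cannot be told apart. FPKM were used to compare levels between genes.

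The alternatives were DESeq2 1.42.0 as the test (with its own normalization and filter), its size factors within edgeR, library totals only, no filter, a minimum of 10 counts per library, a block on replicate number, limma 3.58.1 (which changes the measure, the test, the normalization and the filter together) with a trend on log2(FPKM + 1) or log2(FPKM + 0.1) (FPKM of at least 1 in 2 libraries) and with log2(FPKM + 1) unfiltered, and leaving out each of the 4 libraries. The tests were tested on simulated counts. Genes described in full were, in each role group, the 2 with the highest mean FPKM and, over all members, the 6 with the largest called change without overlap and those with the smallest and largest p; other members are given with their group. The members and lists were chosen with earlier results of these data known. Shared reads were estimated from 100-base words of GENCODE M21 transcripts, and for 24 of the 29 genes with a RefSeq promoter the bases after the start were found near the 5′ end of a GENCODE transcript of that gene. Some genes of the pathway lists are not reported here.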

Additional observations from a re-analysis of the deposited data

How the results depend on the processing

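Of the 21 antiviral genes called higher, 14 kept the call in all 13 alternatives and 7 lost it in at least 1. The count was 14 to 22 over the alternatives, lowest with limma on unfiltered log2(FPKM + 1) and 22 with DESeq2, and 18 to 21 with 1 library left out. The count called lower was 0 to 2 with 1 library left out: 2 without WT replicate 1 and, with edgeR, 0 without either anti-Act1 replicate, where 1 gene was lower at an unadjusted p under 0.05; DESeq2 and limma gave 1 each. The median log2 fold change was 0.18 (0.176) with library totals only, 0.173 with limma on log2(FPKM + 1) with or without a filter and 0.176 with log2(FPKM + 0.1), and 0.179 to 0.213 with 1 library left out. All genes called numbered 2586, 1091 with limma on unfiltered log2(FPKM + 1), and 1671 to 2543 with 1 library left out; the cause was not tested.

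The deviations of same-numbered libraries had a correlation of −0.03 across genes, so no shared deviation was seen. This value cannot show whether same-numbered libraries were prepared together. With the replicate block 21 antiviral genes were higher and 1 lower, and the median was 0.20. Signs turned only for genes near 0. The log2 change of Oasl2 was −0.0034 with library totals only and −0.0029 in each of the 3 fits on FPKM, and that of Samd9l −0.0051 and −0.0033. With 1 library left out, the log2 change was −0.011 to 0.055 for Oasl2, −0.057 to 0.10 for Samd9l, −0.15 to 0.096 for Dtx3l, −0.18 to 0.028 for Ifi27l2a, −0.044 to 0.00074 for Parp14 and −0.0029 to 0.060 for Irf9. Of the other antiviral genes, 4 were called higher with limma on unfiltered log2(FPKM + 1), against 17. Among all genes, 3.76% were called higher in that fit, against 10.9% in the main fit. Without anti-Act1 replicate 1 fewer were called higher too, both of these genes and of all genes. With no filter Ifnb1 had an edgeR adjusted p of 0.0941. All 38 genes were deeply counted, while the interferon genes were at or near the limit that a count of 0 allows.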
